A study of Mus musculus with 36 samples.

Results

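The genes described here write, erase or read DNA methylation. They were chosen by name and role, as the rows of both count tables whose Ensembl identifier matched *Tet1*, *Tet2*, *Tet3*, *Dnmt1*, *Dnmt3a*, *Dnmt3b*, *Uhrf1*, *Mbd1* or *Mbd3*. These are 9 of the 46603 genes counted, and all 9 passed the filter on low counts at each stage. RNA-seq was performed on the forebrain of C57Bl/6J mouse embryos that carry different alleles of *Chd8*, which encodes a chromatin remodeller. The study asked how the transcriptome differs between degrees of *Chd8* loss, and the values of these 9 genes are described here in each group.

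At E12.5, neocortices came from *Chd8* +/+ embryos, *Chd8* +/- heterozygotes, *Chd8* neo/neo mild hypomorphs and *Chd8* neo/- severe hypomorphs. The neo allele carries a selection cassette in an intron of *Chd8* that lowers expression through aberrant splicing, and neo/- embryos combine it with a null allele. At E10.5, telencephalic vesicles came from cKO embryos (Sox1-Cre, *Chd8* f/f), in which Cre is active in the early neuroectoderm, and from Ctrl embryos (*Chd8* f/f or *Chd8* f/+) that lack Cre, so that Cre and loss of *Chd8* cannot be told apart. Each of the 6 groups holds 3 libraries. A library holds 1 embryo at E12.5 and 2 pooled embryos at E10.5, and replicates came from different litters. By *Xist* and Y-linked counts, the female E12.5 libraries were *Chd8* +/+ replicate 3, *Chd8* +/- replicate 1 and *Chd8* neo/neo replicates 1 and 2. All others at E12.5 were male, so sex was not balanced between the genotypes. The same 3 *Chd8* +/+ libraries were the control of all 3 E12.5 mutants, so the 3 comparisons with *Chd8* +/+ are not independent of each other.

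DNA methylation is placed mainly on cytosines of CG dinucleotides. DNMT3A and DNMT3B set new marks, while DNMT1, guided by UHRF1 to hemimethylated DNA behind the replication fork, copies marks to the daughter strand. TET enzymes oxidise 5-methylcytosine and so start its removal. MBD1 binds methylated CG, whereas MBD3 is a subunit of the NuRD repressor complex that binds methylated DNA poorly in mammals. In the developing cortex, TET and DNMT3A activity is known to shape the methylome as progenitors become neurons.

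Promoters are shown for the members that changed against *Chd8* +/+ by edgeR: *Uhrf1*, which rose in 1 mutant, and *Dnmt3a*, *Tet1* and *Tet2*, which fell in more than 1. *Mbd3*, which rose in cKO, is not shown. For *Uhrf1* and *Dnmt3a*, only 1 of several windows is shown. Each sequence holds the 250 bases before a RefSeq start site in GRCm38.p6, read 5′ to 3′ on the gene's strand. Capitals mark an E2F word (TTTCCCGC, TTTCGCGC, TTTGCCGC or TTTGGCGC on either strand) in *Uhrf1* and a GC box (GGGCGG on either strand) in the other 3. An E2F word and a GC box can share letters and were counted separately, and the GC boxes of *Uhrf1* are left in lower case. None of the 4 windows overlaps an annotated exon of its own gene, and all 4 lie inside the outer bounds of their gene, before one of its inner start sites.

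Uhrf1, chr17:56304063-56304312, plus strand: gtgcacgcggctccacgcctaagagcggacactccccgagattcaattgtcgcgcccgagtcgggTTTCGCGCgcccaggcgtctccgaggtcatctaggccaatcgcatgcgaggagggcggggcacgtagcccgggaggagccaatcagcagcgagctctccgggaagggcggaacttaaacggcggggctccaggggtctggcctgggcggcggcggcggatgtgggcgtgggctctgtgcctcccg
Dnmt3a, chr12:3806730-3806979, plus strand: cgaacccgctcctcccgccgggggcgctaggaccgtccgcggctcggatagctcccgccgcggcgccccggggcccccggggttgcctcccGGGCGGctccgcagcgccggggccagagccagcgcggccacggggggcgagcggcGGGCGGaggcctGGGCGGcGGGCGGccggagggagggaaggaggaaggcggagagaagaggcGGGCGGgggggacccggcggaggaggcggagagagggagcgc
Tet1, chr10:62887325-62887574, minus strand: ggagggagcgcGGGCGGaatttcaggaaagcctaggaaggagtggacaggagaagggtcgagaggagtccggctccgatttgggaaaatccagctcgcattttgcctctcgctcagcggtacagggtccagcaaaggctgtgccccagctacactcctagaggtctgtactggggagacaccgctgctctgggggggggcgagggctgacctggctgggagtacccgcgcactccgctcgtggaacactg
Tet2, chr3:133544391-133544640, minus strand: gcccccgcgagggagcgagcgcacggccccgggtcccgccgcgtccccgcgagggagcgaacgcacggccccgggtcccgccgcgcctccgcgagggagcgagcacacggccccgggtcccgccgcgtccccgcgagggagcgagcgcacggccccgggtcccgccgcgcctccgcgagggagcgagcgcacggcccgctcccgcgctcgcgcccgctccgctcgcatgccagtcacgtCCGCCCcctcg

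An E2F word was found in 1 of the 2 *Uhrf1* windows and in 1 of the 3 *Dnmt1* windows, which shares 166 of its bases with a *Dnmt1* exon and is not printed. Of all windows, 611 of 32851 (1.86%) hold such a word. The other members with an entry held none of these words, and 8 of the 9 members had an entry. GC boxes were more general, with 1 or more in 32.7% of all windows. The windows shown are rich in CG, the substrate of these enzymes, with 30 CG in *Uhrf1*, 38 in *Dnmt3a*, 15 in *Tet1* and 51 in *Tet2* against a median of 6 over all windows. The windows of these genes that are not shown held 10 CG in *Uhrf1* and 40 and 15 in *Dnmt3a*. A match describes letters only and is no measured site.

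By the coordinates of GRCm38, the genes lie on 8 chromosomes: *Dnmt1* (ENSMUSG00000004099) at chr9:20907206-20959888, *Dnmt3a* (ENSMUSG00000020661) at chr12:3806007-3914443, *Dnmt3b* (ENSMUSG00000027478) at chr2:153649450-153687730, *Uhrf1* (ENSMUSG00000001228) at chr17:56303321-56323486, *Tet1* (ENSMUSG00000047146) at chr10:62804570-62899118, *Tet2* (ENSMUSG00000040943) at chr3:133463679-133545139, *Tet3* (ENSMUSG00000034832) at chr6:83362373-83459084, *Mbd1* (ENSMUSG00000024561) at chr18:74268272-74282685 and *Mbd3* (ENSMUSG00000035478) at chr10:80392539-80399550. Counts are sums over the exons of each gene, so isoforms are not separated. The antisense gene *Dnmt3aos* shares 133 exon bases with *Dnmt3a* and held 0 to 3 counts in a library. *Gm42567* shares 43 exon bases with *Tet2* and likewise held 0 to 3 counts.

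Total counts ranged from 38774591 to 61051667 per library at E12.5 and from 49632937 to 68488879 at E10.5. *Chd8* itself was lower in every mutant group than in its control: its level, in counts per 1000000 reads of its library after scaling (CPM), was 237 ± 2.41 (SD, n = 3) in *Chd8* +/+, 167 ± 3.04 in *Chd8* +/-, 208.9 ± 5.64 in neo/neo and 149 ± 8.38 in neo/- embryos, and it was 171 ± 12.005 in Ctrl and 121 ± 4.78 in cKO. It was higher in *Chd8* neo/neo than in *Chd8* +/- (0.33 on the log2 scale, adjusted p = 0.00897 by edgeR), so whole-gene counts do not place the heterozygotes above the mild hypomorphs. These counts do not separate full-length transcripts from those spliced into the cassette or lacking the floxed exon. The forebrain markers *Emx1*, *Emx2*, *Lhx2* and *Pax6* were detected in every group. In *Chd8* neo/neo, *Pax6* rose as 1 of 5 forebrain genes and *Sox2* as 1 of 6 radial glia genes, where 3.71% of all genes were called higher. The neuron list of 9 genes summed to 3673 to 4386 CPM in *Chd8* +/+ and 3774 to 4435 in *Chd8* +/-, with no gene at 0. The sum was below both in *Chd8* neo/neo, at 3009 to 3537, while *Chd8* neo/-, at 3358 to 3760, overlapped *Chd8* +/+. Of the 9 genes, *Dcx* and *Map2* fell in each hypomorph, where 4.45% of all genes were called lower in neo/neo and 5.99% in neo/-. The median log2 fold change of the list was -0.32 in neo/neo and -0.14 in neo/-. The 7 genes of ventral telencephalon summed to 566.1 to 664.56 CPM in *Chd8* neo/neo and 532 to 650 in neo/-, and *Gad1* fell in each. Their sums were 664.57 to 696 in *Chd8* +/+ and 584 to 690 in *Chd8* +/-. The 5 endothelial genes summed to 184 to 192 CPM in *Chd8* +/-, 182 to 201 in neo/neo and 205.5 to 230 in neo/-. In *Chd8* +/+ they summed to 206 to 209, and *Kdr* fell in neo/neo. The 6 erythroid genes summed to 4304 to 6863 CPM in *Chd8* neo/- against 2982 to 3666 in *Chd8* +/+, and the embryonic globins *Hba-x* and *Hbb-bh1* rose. In such bulk tissue, fewer cells of a type and less RNA per cell cannot be told apart, and the part of these shifts in the results below was not tested.

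**Figure D1:**
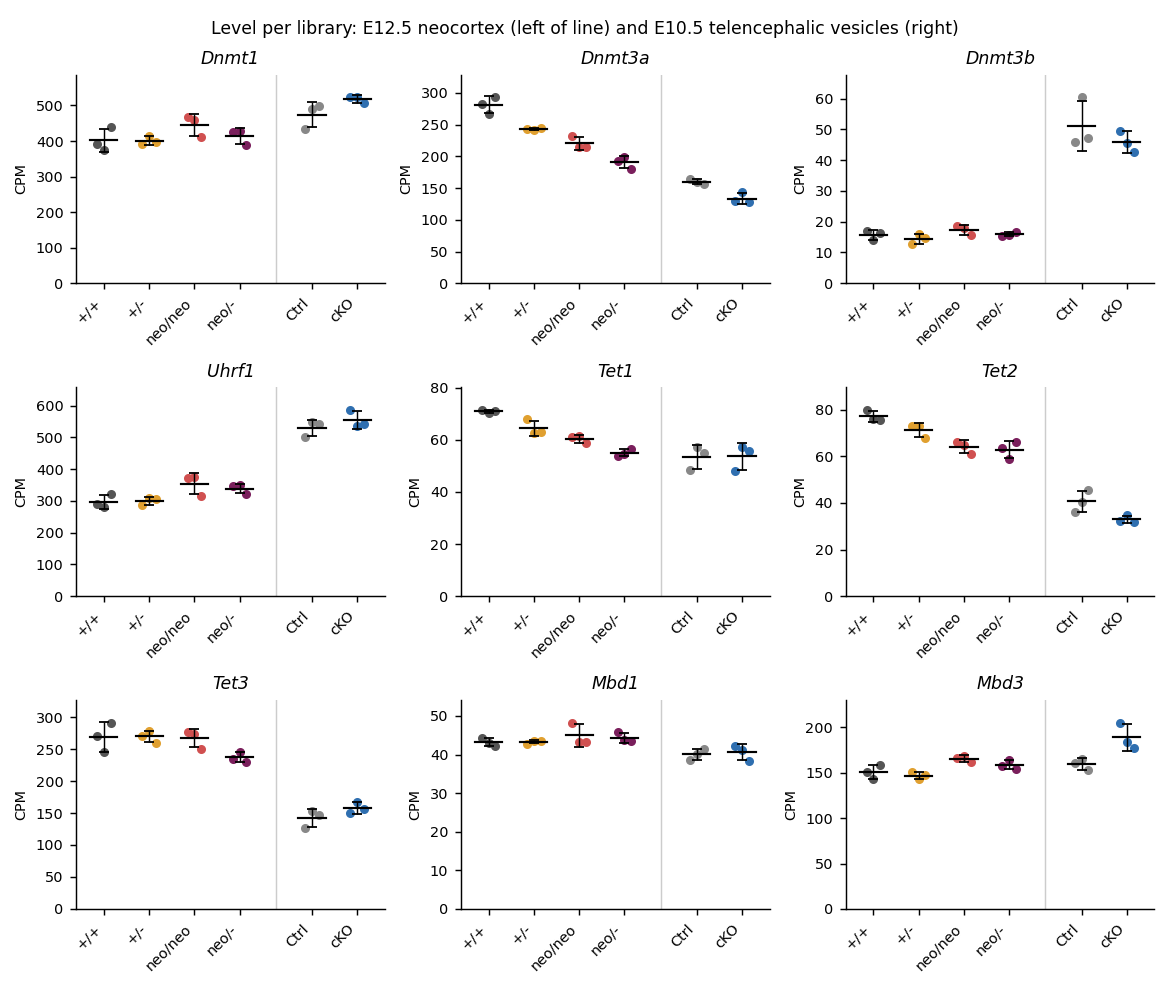
Level of each of the 9 genes (y axis, CPM) in each library (points), with the group mean (horizontal line) and SD (bars, n = 3), for the 4 E12.5 genotypes and the 2 E10.5 groups. *Dnmt3a*, *Tet1* and *Tet2* are highest in *Chd8* +/+, and all 3 *Chd8* neo/- libraries lie below all 3 *Chd8* +/+ libraries.

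Per kilobase of exon, the maintenance genes and *Mbd3* were the most abundant of these transcripts. In *Chd8* +/+ neocortex the mean level was 75.8 CPM per kb for *Mbd3*, 69.9 for *Uhrf1* and 63.7 for *Dnmt1*, and each of these overlapped its neighbour in the order. *Tet3* followed at 22.4 CPM per kb and *Dnmt3a* and *Mbd1* overlapped at 16.9 and 16.1. The lowest were *Tet1* at 4.82, *Tet2* at 4.57 and *Dnmt3b* at 3.09 CPM per kb. In Ctrl telencephalic vesicles the order was *Uhrf1* (125 CPM per kb), *Mbd3* (80.3), *Dnmt1* (75.2), *Mbd1* (14.9), *Tet3* (11.8), *Dnmt3b* (10.03), *Dnmt3a* (9.62), *Tet1* (3.64) and *Tet2* (2.41). Per kilobase, *Dnmt3b*, the de novo enzyme of the early embryo, thus overlapped *Dnmt3a* at E10.5 and was the least abundant of the 9 at E12.5. Before division by exon length, *Dnmt3a* averaged 160 CPM and *Dnmt3b* 51.2 CPM in Ctrl. Stage, dissection and sequencing run cannot be told apart between the tables, and no test was made between them.

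Among the erasers, *Tet1* and *Tet2* fell in both hypomorphs, and *Tet3* was not called by edgeR in any comparison with a control. *Tet1* read 71.6, 70.2 and 71.0 CPM in the *Chd8* +/+ libraries, 67.9, 62.7 and 63.0 in *Chd8* +/-, 61.1, 61.3 and 58.7 in *Chd8* neo/neo, and 54.0, 54.5 and 56.6 in *Chd8* neo/-. No library of a genotype overlapped one of another: the +/+ libraries were the highest, then the heterozygous, the neo/neo and the neo/- libraries. It fell by 14.9% in *Chd8* neo/neo (log2 fold change -0.23 ± 0.044 SE, adjusted p = 0.00784) and it fell by 22.4% in *Chd8* neo/- (-0.37 ± 0.044, adjusted p = 0.000195) by edgeR's quasi-likelihood test with Benjamini-Hochberg adjustment over all genes tested. In heterozygotes the log2 fold change was -0.14 ± 0.044, with an adjusted p of 0.649.

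*Tet2*, whose protein lacks the DNA-binding CXXC domain of TET1 and TET3, read 80.0, 76.1 and 75.4 CPM in *Chd8* +/+, 72.9, 72.9 and 67.6 in *Chd8* +/-, 66.3, 64.8 and 61.1 in *Chd8* neo/neo, and 63.6, 59.0 and 66.0 in *Chd8* neo/-. Here the hypomorphs overlapped each other but lay below every heterozygous and every *Chd8* +/+ library. It fell by 16.98% in *Chd8* neo/neo (-0.27 ± 0.052, adjusted p = 0.00972) and fell by 18.5% in neo/- (-0.30 ± 0.052, adjusted p = 0.00290), while the value in heterozygotes was -0.12 ± 0.052 (adjusted p = 0.782). *Tet3*, the most abundant of the family, averaged 269 ± 22.9 CPM in *Chd8* +/+, 269.6 ± 9.18 in *Chd8* +/-, 267 ± 14.1 in neo/neo and 237 ± 7.87 in neo/- embryos. Its log2 fold change in *Chd8* neo/neo was -0.01 ± 0.059, with a 95% interval from -0.14 to 0.12. In *Chd8* neo/- its log2 fold change was -0.18 ± 0.059 (adjusted p = 0.0609). It was called there by DESeq2 (-0.18, adjusted p = 0.0312), with no filter on low counts, and without *Chd8* +/+ replicate 2 (-0.24, adjusted p = 0.0219).

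Because all 3 TET transcripts are measured in the same library, their proportions need no scaling between libraries. *Tet1* made up 15.1%, 16.05% and 14.4% of length-scaled Tet counts in *Chd8* +/+, 14.6%, 13.4% and 14.3% in *Chd8* +/-, and 13.6%, 13.4% and 14.3% in *Chd8* neo/-. In *Chd8* neo/neo it averaged 13.6% ± 0.341 (SD, n = 3). The share was lower in every hypomorph library than in every *Chd8* +/+ library, by 1.56 percentage points in *Chd8* neo/neo and 1.44 in neo/-, and the heterozygotes overlapped *Chd8* +/+. The exact two-sided permutation test gave p = 0.1 for each hypomorph, which is the smallest p that 3 against 3 libraries allow. *Tet3* held most of the Tet counts in all groups at E12.5, between 70.4% on average in *Chd8* +/+ and 73.8% in *Chd8* neo/neo.

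Of the writers, *Dnmt3a* had the largest change of the 9 genes in each E12.5 comparison with *Chd8* +/+. It read 283, 267 and 294 CPM in *Chd8* +/+, 243, 241 and 245 in *Chd8* +/-, 232, 214.5 and 214.4 in *Chd8* neo/neo, and 193, 198 and 181 in *Chd8* neo/-. As for *Tet1*, the 4 genotypes did not overlap and stood in the same order. The share of all genes without overlap was counted only for *Chd8* +/- against *Chd8* +/+, so how common such an order is was not measured. It fell by 21.7% in *Chd8* neo/neo (-0.35 ± 0.048, adjusted p = 0.00164) and fell by 32.2% in neo/- (-0.56 ± 0.049, adjusted p = 1.63e-05), and these calls were kept under all 16 alternative settings of the analysis. The value in heterozygotes was -0.21 ± 0.048 with an adjusted p of 0.409 by edgeR and 0.0980 by DESeq2.

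*Dnmt3b* was not called in any comparison. It averaged 15.8 ± 1.65 CPM in *Chd8* +/+, 14.4 ± 1.70 in *Chd8* +/-, 17.3 ± 1.53 in neo/neo and 15.9 ± 0.658 in neo/- embryos, with log2 fold changes of -0.13 ± 0.097, 0.13 ± 0.096 and 0.01 ± 0.096 against *Chd8* +/+. With *Dnmt3a* lower, *Dnmt3b* made up more of the length-scaled Dnmt3 counts in the hypomorph libraries. Its share was 16.4%, 14.5% and 15.4% in *Chd8* +/+, 20.6%, 21.4% and 19.1% in *Chd8* neo/neo and 20.7%, 20.5% and 23.1% in *Chd8* neo/-. Every hypomorph library was above every *Chd8* +/+ library, by 4.96 percentage points on average in *Chd8* neo/neo and 6.01 in neo/- (exact permutation test, two-sided, p = 0.1 each). In raw counts, not scaled for exon length, these differences were 1.99 and 2.43 points. *Dnmt3a* has 16642 exon bases and *Dnmt3b* 5106, and the part of exon length in these differences was not tested. Heterozygotes overlapped *Chd8* +/+, with a difference of 0.768 points (exact permutation p = 0.7).

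**Figure D2:**
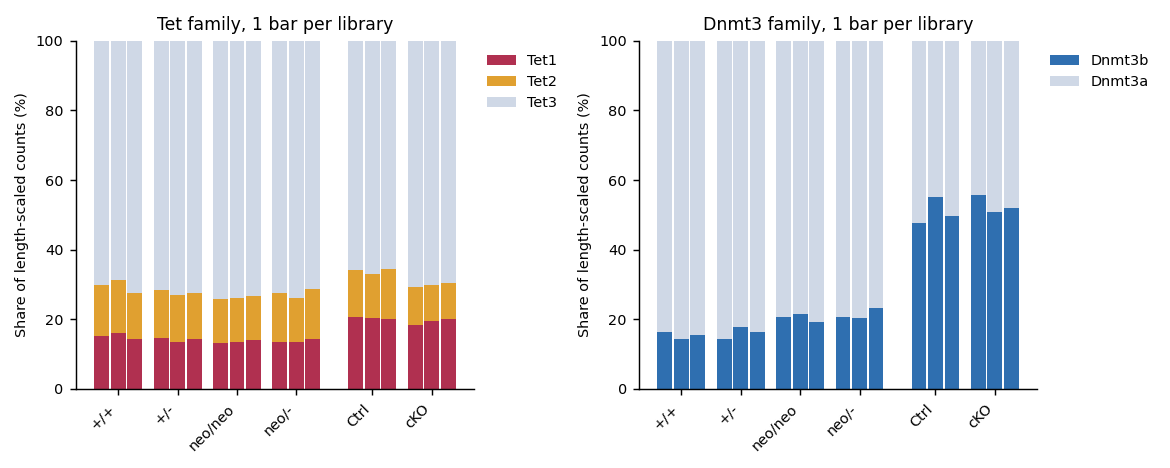
Share of each gene in the length-scaled counts of its family (y axis, %) in every library (1 bar each, n = 3 a group), for the Tet genes on the left and the Dnmt3 genes on the right. The *Dnmt3b* segment is taller in every *Chd8* neo/neo and *Chd8* neo/- bar than in every *Chd8* +/+ bar, and it is about as tall as that of *Dnmt3a* at E10.5.

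Of the maintenance pair, *Uhrf1* rose in *Chd8* neo/neo and *Dnmt1* was not called. *Uhrf1* read 289, 281.5 and 323 CPM in *Chd8* +/+ and 372, 376 and 315.5 in *Chd8* neo/neo, so that the third mild hypomorph lay within the *Chd8* +/+ range. That library was the only male of its group, and the highest *Chd8* +/+ library was the only female of its group. The log2 fold change was 0.25 ± 0.070 (adjusted p = 0.0406). The call was lost without *Chd8* +/+ replicate 1 (0.22, adjusted p = 0.111) or 2 (0.22, 0.145) and without *Chd8* neo/neo replicate 1 (0.21, 0.153) or 2 (0.20, 0.166), with the sex of the embryo in the model (0.21, 0.0706), with only the groups compared (0.25, 0.114), with the replicate number as a block (0.25, 0.0688) and with the exon length trend removed (0.27, 0.0508). In *Chd8* neo/- it read 346, 349 and 321 CPM (0.19 ± 0.070, adjusted p = 0.101, called only with sex in the model) and in *Chd8* +/- it averaged 301 ± 12.6 CPM (0.01 ± 0.070). *Dnmt1* averaged 402 ± 33.5 CPM in *Chd8* +/+, 401 ± 11.9 in *Chd8* +/-, 446 ± 31.1 in neo/neo and 415 ± 22.1 in neo/- embryos. None of its values passed the test, the nearest being 0.15 ± 0.065 in *Chd8* neo/neo (adjusted p = 0.164). Genes of S phase moved in the same comparison, as 5 of the 17 listed replication genes rose in *Chd8* neo/neo (*Gins2*, *Mcm2*, *Mcm3*, *Mcm6*, *Rfc4*) and none fell, where 3.71% of all genes were called higher, with a median log2 fold change of 0.14 against 0.005 over all genes tested. Their summed level was 4741 to 5135 CPM in *Chd8* +/+ and 5018 to 5591 in *Chd8* neo/neo. In *Chd8* neo/-, 3 of the 17 rose (*Gins2*, *Mcm6*, *Rfc4*) and 0 fell, with a median of 0.12, where 5.48% of all genes were called higher. The part of these replication genes in the *Uhrf1* values was not tested.

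Neither reader was called against *Chd8* +/+ by edgeR. *Mbd1* averaged 43.2 ± 1.11 CPM in *Chd8* +/+, 43.3 ± 0.420 in *Chd8* +/-, 44.9 ± 2.87 in neo/neo and 44.4 ± 1.29 in neo/- embryos, and its 95% intervals against *Chd8* +/+ ran from -0.11 to 0.16 on the log2 scale. *Mbd3* averaged 151 ± 7.39, 147 ± 3.79, 165 ± 3.64 and 159 ± 4.94 CPM in the same order. It was higher in every *Chd8* neo/neo library than in every *Chd8* +/+ library, but the difference of 0.13 ± 0.042 had an adjusted p of 0.0645. It was called by DESeq2 (0.13, adjusted p = 0.0490) and without *Chd8* +/+ replicate 3 (0.18, adjusted p = 0.0457).

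**Figure D3:**
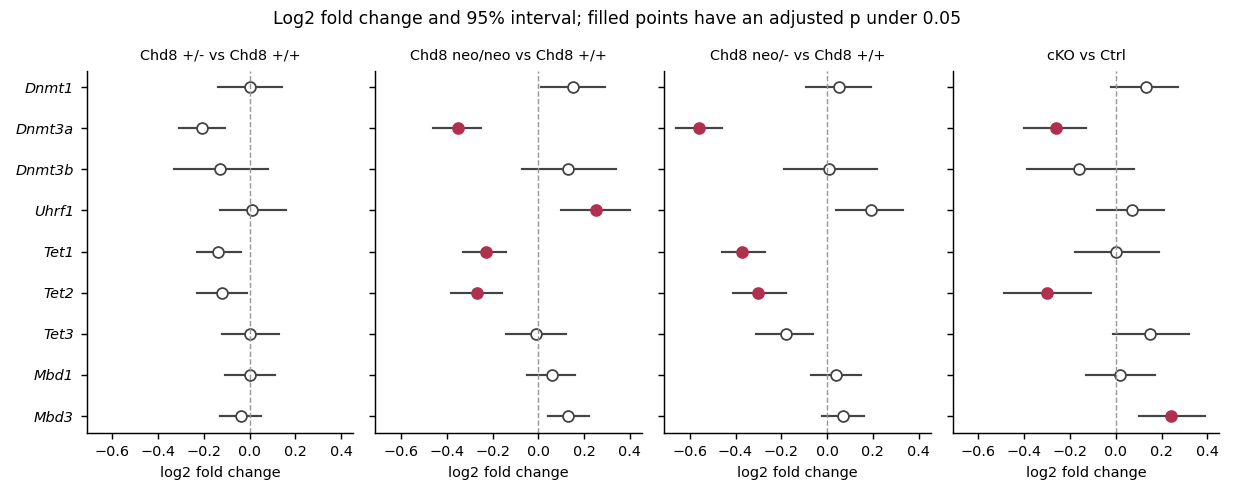
Log2 fold change of each of the 9 genes against the control of its stage (x axis) with its 95% interval, for the 3 E12.5 mutants and the cKO (n = 3 a group); filled points have an adjusted p under 0.05. *Dnmt3a*, *Tet1* and *Tet2* sit left of 0 with filled points in both hypomorphs, and no point is filled in the heterozygotes.

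Counted together, 0 of the 9 genes were called in *Chd8* +/- by edgeR and 0 by DESeq2. In either direction, edgeR called 0.0213% of all 18810 genes tested, and DESeq2 called 12 of 18016. At an unadjusted p under 0.05, edgeR gave 3 (*Dnmt3a*, *Tet1*, *Tet2*), and 6.33% of all genes. The same 3 were lower in every heterozygous library than in every *Chd8* +/+ library, as were 5.90% of all genes. In *Chd8* neo/neo, 1 gene rose and 3 fell, against 3.71% of all genes called higher and 4.45% called lower. In *Chd8* neo/-, 0 rose and 3 fell, against 5.48% and 5.99%. DESeq2 called 5 members in *Chd8* neo/neo, adding *Mbd3*, and 4 in neo/-, adding *Tet3*. Over all genes, DESeq2 called 2262 of 14366 tested in *Chd8* neo/neo and 2587 of 14973 in neo/-, so its shares were above those of edgeR. *Uhrf1*, at an unadjusted p of 0.0180 by edgeR, was the only member with a positive change under 0.05 before adjustment in *Chd8* neo/-.

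The genotypes were also compared with each other. *Dnmt3a* fell from *Chd8* +/- to *Chd8* neo/- (-0.35 ± 0.049, adjusted p = 0.00306), as did *Tet1* (-0.23 ± 0.044, adjusted p = 0.0107). The *Tet1* call was lost without *Chd8* +/- replicate 1 (-0.19, adjusted p = 0.0522), *Chd8* neo/- replicate 1 (-0.22, 0.0567) or *Chd8* neo/- replicate 2 (-0.22, 0.0533). These 2 falls compare with 3.25% of all genes called lower and 2.18% called higher. Between *Chd8* neo/neo and *Chd8* +/-, *Mbd3* rose (165.9, 168 and 161 CPM against 150.2, 143 and 147; 0.17 ± 0.042, adjusted p = 0.0349). This was 1 of 9 members, where 2.00% of all genes were called higher and 3.28% lower. The replicate numbers paired these 2 genotypes, and with them as a block the adjusted p of *Mbd3* was 0.0607. Leaving out any of the 3 *Chd8* +/- libraries or *Chd8* neo/neo replicate 1 or 2 gave values of 0.14 to 0.18 that were not called (adjusted p 0.0908 to 0.132). In this comparison *Uhrf1* (0.24 ± 0.070, adjusted p = 0.0611) and *Dnmt3b* (0.26 ± 0.096, adjusted p = 0.120) were called only without *Chd8* neo/neo replicate 3 among the libraries left out, at 0.31 (adjusted p = 0.00784) and 0.32 (adjusted p = 0.0497).

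Between the hypomorphs, 0 of the 9 genes were called by edgeR or by DESeq2, and 3 had an unadjusted p under 0.05 by edgeR (*Dnmt3a*, *Tet1*, *Tet3*), as did 8.43% of all genes. *Dnmt3a* differed by -0.21 ± 0.048 (95% interval -0.31 to -0.10, adjusted p = 0.366), *Tet1* by -0.13 ± 0.044 (-0.23 to -0.04, adjusted p = 0.515) and *Tet3* by -0.17 ± 0.059 (-0.30 to -0.04, adjusted p = 0.519). *Tet2* differed by -0.03 ± 0.052 (-0.14 to 0.08). Over all genes, 0.0159% were called in either direction by edgeR, and 26 of 12540 by DESeq2. Every *Chd8* neo/- library was male and *Chd8* neo/neo held both sexes, so sex is not balanced in this comparison.

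In the E10.5 telencephalic vesicles of cKO embryos, *Dnmt3a* and *Tet2* fell, *Mbd3* rose and the other 6 genes were not called. *Dnmt3a* read 164, 159.9 and 157 CPM in Ctrl and 129, 143 and 128 in cKO (-0.26 ± 0.061, adjusted p = 0.0205), with no overlap. Without Ctrl replicate 3, cKO replicate 1 or cKO replicate 3 its adjusted p was 0.0534, 0.0587 and 0.0984. *Tet2* read 36.1, 40.4 and 45.4 CPM in Ctrl and 32.1, 34.7 and 31.9 in cKO, again with no overlap (-0.30 ± 0.087, adjusted p = 0.0444). Its call was lost without Ctrl replicate 2 (-0.31, adjusted p = 0.0525) or 3 (-0.22, 0.166) and without cKO replicate 1 (-0.29, 0.106), 2 (-0.34, 0.101) or 3 (-0.28, 0.138). *Tet1* read 48.4, 57.2 and 54.8 CPM in Ctrl and 47.9, 57.5 and 55.5 in cKO, a difference of 0.00 ± 0.084 with a 95% interval from -0.18 to 0.19.

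*Mbd3* read 161, 165.0 and 153 CPM in Ctrl and 205, 184 and 177 in cKO (0.24 ± 0.066, adjusted p = 0.0392), higher in every cKO library. The call was lost without Ctrl replicate 1 (0.25, adjusted p = 0.0581) or 3 (0.21, 0.145) and without cKO replicate 1 (0.18, 0.107), 2 (0.26, 0.112) or 3 (0.29, 0.0533). *Dnmt1* averaged 474 ± 35.6 CPM in Ctrl and 518 ± 10.4 in cKO, higher in every cKO library but not called (0.13 ± 0.067, adjusted p = 0.251). *Uhrf1* (530.5 ± 25.1 against 555 ± 27.8 CPM), *Dnmt3b* (51.2 ± 8.16 against 46.0 ± 3.51), *Tet3* (142 ± 13.8 against 158 ± 8.76) and *Mbd1* (40.1 ± 1.43 against 40.6 ± 2.13) overlapped and were not called. In all, 1 of the 9 genes rose and 2 fell, against 5.75% of the 18435 genes tested called higher and 5.70% called lower. The share of all genes without overlap between cKO and Ctrl was not counted. The share of *Dnmt3b* in length-scaled Dnmt3 counts was 50.8% ± 3.94 in Ctrl and 52.9% ± 2.47 in cKO. That of *Tet1* in length-scaled Tet counts was 20.4% ± 0.352 and 19.4% ± 0.914. Both shares overlapped between the groups, and the design allows no exact permutation p under 0.1. Markers of other cell types moved in the same comparison: the 6 genes of mesenchyme and meninges summed to 296 to 354 CPM in Ctrl and 400.1 to 458 in cKO, and the 5 microglial genes to 18.2 to 21.6 and 23.2 to 25.3 CPM, with none at 0. The 7 genes of ventral telencephalon summed to 12.1 to 24.8 CPM in Ctrl and 8.42 to 15.2 in cKO, and *Gsx2* among them fell. Their part in these values was not tested.

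Whether the cKO at E10.5 and the severe hypomorph at E12.5 changed these genes to the same degree was tested directly, as the cKO effect minus the neo/- effect in a fit of all 18 libraries. *Tet1* differed by 0.37 ± 0.089 (95% interval 0.18 to 0.56, adjusted p = 0.0187), *Dnmt3a* by 0.29 ± 0.074 (0.14 to 0.45, adjusted p = 0.0231) and *Tet3* by 0.33 ± 0.094 (0.14 to 0.53, adjusted p = 0.0395). *Tet1* thus fell in *Chd8* neo/- and was not called in cKO, *Dnmt3a* fell in each but less in cKO, and *Tet3* had values of opposite sign, neither of them called by edgeR. For *Tet2* the difference was -0.01 (95% interval -0.21 to 0.19). Over all 19565 genes, 3.90% were called higher and 2.89% lower in this contrast. The *Tet1* call was lost without *Chd8* neo/- replicate 1 (0.36, adjusted p = 0.0531), cKO replicate 2 (0.32, 0.0689) or cKO replicate 3 (0.34, 0.0507), and that of *Dnmt3a* without *Chd8* +/+ replicate 3 (0.26, 0.0690), *Chd8* neo/- replicate 3 (0.26, 0.0639) or cKO replicate 2 (0.24, 0.0801). The *Tet3* call was lost without *Chd8* +/+ replicate 1 or 3, any *Chd8* neo/- library, Ctrl replicate 1, or cKO replicate 2 or 3, with values of 0.26 to 0.36, and also with only the groups compared (0.34, adjusted p = 0.0618) and with the second run alone. Stage, dissection, allele and Cre differ together here and cannot be told apart.

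The genes that fell are long. *Tet2*, *Dnmt3a* and *Tet1* have 16870, 16642 and 14710 exon bases. *Tet3*, which was not called, has 11999, while *Dnmt1* has 6304, *Dnmt3b* 5106, *Uhrf1* 4259, *Mbd1* 2689 and *Mbd3* 1987. Long transcripts were lower as a class at E12.5: of the 1103 tested genes with 10000 or more exon bases, 16.4% were called lower and 1.09% higher in *Chd8* neo/neo, and 23.8% lower and 1.54% higher in *Chd8* neo/-, with median log2 fold changes of -0.077 and -0.115. Of the 8234 genes under 3000 exon bases, 1.79% were called lower and 7.10% higher in *Chd8* neo/-. *Tet1*, *Tet2* and *Dnmt3a* lay below the median of their length class in each hypomorph. In cKO the 1089 longest genes were not lower as a class, with 5.97% called lower, 7.99% higher and a median of 0.033.

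With the trend of counts on exon length removed in each library, *Dnmt3a* was still called in *Chd8* neo/neo (-0.23, adjusted p = 0.0258) and *Chd8* neo/- (-0.42, adjusted p = 0.000236), as was *Tet1* in *Chd8* neo/- (-0.23, adjusted p = 0.0116). *Tet1* in *Chd8* neo/neo became -0.12 (adjusted p = 0.186), and *Tet2* became -0.14 (adjusted p = 0.125) in *Chd8* neo/neo and -0.15 (adjusted p = 0.104) in *Chd8* neo/-. *Uhrf1* in *Chd8* neo/neo became 0.27 (adjusted p = 0.0508), and the fall of *Dnmt3a* from *Chd8* +/- to *Chd8* neo/- became -0.21 (adjusted p = 0.0523). The differences between the cKO and neo/- effects were no longer called either, at 0.10 for *Dnmt3a*, 0.19 for *Tet1* and 0.18 for *Tet3*. The cKO calls were kept, at -0.32 for *Dnmt3a* (adjusted p = 0.0104), -0.35 for *Tet2* (adjusted p = 0.00797) and 0.26 for *Mbd3* (adjusted p = 0.0176). The shares of *Tet1* and *Dnmt3b* in their families were not recomputed with this trend removed. Whether the relation with length is technical or belongs to the genotype was not tested.

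**Figure D4:**
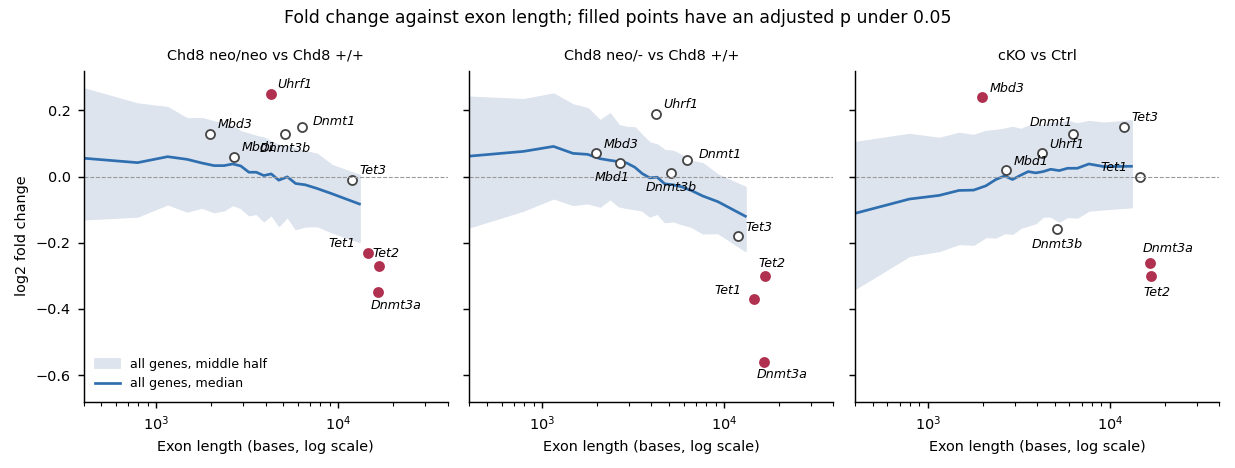
Log2 fold change (y axis) against exon length in bases (x axis, log scale) for the 9 genes (points, filled at an adjusted p under 0.05), with the running median (line) and middle 50% (band) of all genes tested, in *Chd8* neo/neo, *Chd8* neo/- and cKO. The running values end at the median length of the longest bin, so *Tet1*, *Tet2* and *Dnmt3a* lie just beyond them; the median declines with length in the hypomorphs and not in cKO.

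Beyond the 9 genes, a list of 51 partners, repair enzymes, other readers and methyl donor enzymes was described, of which 49 passed the filter at each stage (*Dnmt3l* and *Dppa3* did not). In *Chd8* +/- edgeR called 0 of them, and 5 had an unadjusted p under 0.05 by edgeR, as did 6.33% of all genes. There DESeq2 called 1 (*Smug1*), and 12 of 18016 genes over all. By edgeR, 4 rose and 2 fell in *Chd8* neo/neo, where 3.71% of all genes were called higher and 4.45% lower, with a median log2 fold change of 0.06 over the list. In *Chd8* neo/-, 2 rose and 3 fell (all genes 5.48% and 5.99%), with a median of 0.01. In cKO, 4 rose and 4 fell (all genes 5.75% and 5.70%), with a median of -0.04. DESeq2 called 8, 5 and 12 of them in these 3 comparisons. Over all genes, DESeq2 called 2262 of 14366, 2587 of 14973 and 2690 of 15458 tested. The medians of all genes tested were within 0.005 of 0 in these comparisons.

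Among genes tied to TET activity and the repair that follows it, *Smug1*, a uracil-DNA glycosylase, averaged 28.5 ± 0.683 CPM in *Chd8* +/+ against 34.4 ± 1.22 in neo/neo and 36.8 ± 1.17 in neo/- embryos, and 24.2 ± 1.52 in Ctrl and 31.2 ± 1.84 in cKO. It rose in all 3 comparisons (0.27 ± 0.047, 0.37 ± 0.047 and 0.37 ± 0.078, adjusted p = 0.00587, 0.000334 and 0.0138), the last of which had an adjusted p of 0.0709 without cKO replicate 3. *Ogt*, which encodes the O-GlcNAc transferase that binds TET proteins, fell in the same 3: it averaged 508 ± 28.3, 403 ± 29.7 and 401 ± 15.3 CPM at E12.5, and 452 ± 23.5 and 357 ± 0.452 at E10.5 (-0.33 ± 0.058, -0.34 ± 0.058 and -0.34 ± 0.059, adjusted p = 0.00546, 0.00221 and 0.00553). *Tdg*, the glycosylase that excises oxidised methylcytosine, rose in cKO (0.20 ± 0.054, adjusted p = 0.0352), and *Idh1*, which makes NADPH and the TET cofactor 2-oxoglutarate, fell there (-0.37 ± 0.055, adjusted p = 0.00251). *Gadd45g*, named after its value was seen, was the other gene of this group that rose in *Chd8* neo/neo.

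With the exon length trend removed, *Smug1* and *Ogt* kept their calls in each hypomorph. Of the other readers of methylated CG, the zinc finger gene *Zbtb38* rose in cKO (0.41 ± 0.11, adjusted p = 0.0437).

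Among relatives and partners of the writers, *Trdmt1* (also called *Dnmt2*), which methylates transfer RNA, read 11.8, 12.2 and 11.04 CPM in Ctrl and 6.54, 6.79 and 6.49 in cKO. It fell by 0.83 ± 0.091 on the log2 scale (adjusted p = 0.000428) and was not called in any E12.5 comparison. *Hells*, a remodeller needed for methylation of repeats, fell in cKO as well (-0.22 ± 0.056, adjusted p = 0.0301). *Cdca7l*, a relative of the HELLS partner CDCA7, rose from *Chd8* +/- to *Chd8* neo/neo (0.25 ± 0.060, adjusted p = 0.0317). Of the 11 NuRD partners of MBD3, *Mta2* rose in *Chd8* neo/neo (0.14 ± 0.039, adjusted p = 0.0391) and *Mta3* fell in *Chd8* neo/- (-0.17 ± 0.047, adjusted p = 0.0329). None of the 3 binders of unmethylated CG (*Cxxc1*, *Kdm2a*, *Kdm2b*) was called by edgeR in a comparison with a control.

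In the supply of methyl groups, *Shmt1*, which charges the folate pool with a carbon from serine, rose in *Chd8* neo/neo (52.8, 55.9 and 56.0 CPM in *Chd8* +/+ against 73.9, 72.9 and 62.9; 0.35 ± 0.062, adjusted p = 0.00593) and in neo/- (71.4, 70.7 and 66.5 CPM; 0.34 ± 0.062, adjusted p = 0.00343). *Ahcy*, which removes the S-adenosylhomocysteine left by methylation, rose in cKO (0.21 ± 0.060, adjusted p = 0.0476). The hypomorph calls of *Smug1*, *Ogt* and *Shmt1* and the cKO calls of *Trdmt1*, *Ogt* and *Idh1* held without each library in turn. Those of *Hells*, *Cdca7l*, *Tdg*, *Zbtb38*, *Mta2*, *Mta3* and *Ahcy* were each lost without at least 4 of 6 libraries.

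**Figure D5:**
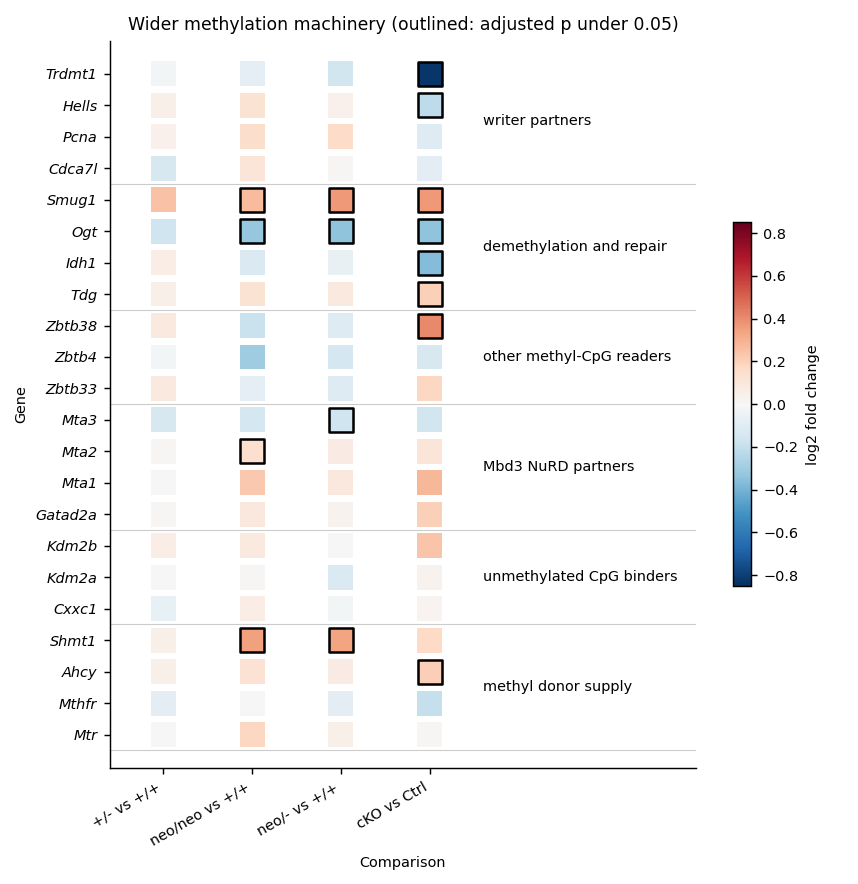
Log2 fold change (colour) of genes of the wider list named by rule (rows, up to 4 in each of 6 groups) in the 4 comparisons with a control (columns); outlined squares have an adjusted p under 0.05. *Smug1* and *Ogt* are outlined in all comparisons except that of the heterozygotes, and *Trdmt1* in cKO only.

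A list of germline genes that promoter methylation is known to silence in the soma was also described. Of its 18 genes, 6 passed the filter at E12.5 and 4 at E10.5. The summed level of all 18 was 13.5 to 18.05 CPM in all E12.5 libraries, with the lowest value in *Chd8* neo/- and the highest in *Chd8* neo/neo. *Tdrd1* rose in *Chd8* neo/-, from 0.939, 0.873 and 0.531 CPM in *Chd8* +/+ to 1.69, 1.45 and 1.37 (0.94 ± 0.27, adjusted p = 0.0373), a call that was lost without each of the 6 libraries in turn (highest adjusted p = 0.135). *Dazl* read 0.137, 0.165 and 0.0850 CPM in *Chd8* +/+ and 0.303, 0.286 and 0.231 in *Chd8* neo/- and was not called. At E10.5 *Tex15* fell in cKO, from 21.3 ± 1.10 to 16.2 ± 2.56 CPM (-0.39 ± 0.11, adjusted p = 0.0418), a call lost without 4 of the 6 libraries.

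Finally, the profiles of the 9 genes over the 12 E12.5 libraries were compared with those of 10248 genes with at least 10 CPM on average. These correlations are descriptions over libraries that share 4 genotypes. *Tet1* was most like *Mapk8ip2* (Pearson r = 0.97), *Sfxn1* (0.97) and *Ralgapa1* (0.96), and *Dnmt3a* was also most like *Sfxn1* (0.98). *Uhrf1* was most like *Plk1* (0.99), *Dnmt1* like *Spata13* (0.99), *Tet2* like *Chic1* (0.97), *Tet3* like *Hnrnpul2* (0.97), *Mbd3* like *Hnrnpul1* (0.96), *Dnmt3b* like *Kank1* (0.91) and *Mbd1* like *Qtrt2* (0.88). Among the members themselves, *Dnmt3a* and *Tet1* (r = 0.94), *Tet1* and *Tet2* (0.91) and *Dnmt1* and *Uhrf1* (0.91) were the closest pairs.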

How the data were processed

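RNA-seq counts of 18 libraries (2 sequencing runs each, deposited as 36 samples) were used: 12 from E12.5 neocortex and 6 from E10.5 telencephalic vesicles. The deposited values are raw read counts per gene and run, made by the authors from paired reads with Trim Galore 0.4.1, TopHat2 2.1.0 and featureCounts 1.5.0 on GRCm38. The E12.5 file header shows no strand option for counting, and none is given for E10.5 in the sources used here, so reads of a gene and of its antisense partner cannot be told apart.

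Runs were summed. Counts were tested in R 4.3.3 with edgeR 4.0.16 (filterByExpr, TMM, robust quasi-likelihood, two-sided, Benjamini-Hochberg over all genes tested, called at an adjusted p under 0.05), with the 12 E12.5 libraries in 1 fit, the 6 E10.5 libraries in another, and all 18 for the difference of effects. DESeq2 1.42.0 was an alternative, beside other scalings, no filter, each run alone, only the groups compared, a replicate block, sex (taken from *Xist* and Y-linked counts), removal of the exon length trend (loess, span 0.5) and each library left out. The fits were tested on simulated counts. Levels are CPM with TMM factors. Replicate numbers were taken to pair *Chd8* +/- with *Chd8* neo/neo only, because deviations from the genotype means correlated for each shared number (0.108, 0.195 and 0.199). No source states what a number stands for, and replicates 1 and 3 of these 2 genotypes were also alike in sex. Genes named are the 9 members, the up to 4 genes of each group of the wider list and the 3 germline genes with the smallest adjusted p against a control, and the genes of most similar profile. Members and lists were chosen with earlier results of these data known. Some genes of the lists are not reported here by name. Figures used matplotlib 3.10.9.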

Additional observations from a re-analysis of the deposited data

Results flagged for a closer look

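The effects of the cKO at E10.5 and of the severe hypomorph at E12.5 differed for 8 of the genes named by rule. The test was edgeR's quasi-likelihood test of the difference itself, with adjustment over all genes. Genes of the wider list were named for their adjusted p against a control, cKO against Ctrl included. The contrast is built from the same values, so this count is not independent of the naming. Of the 49 genes of the wider list that were tested, named or not, 3 were called higher and 4 lower. Over all genes, 3.90% were called higher and 2.89% lower. On the log2 scale the cKO effect was above the neo/- effect for *Dnmt3a* (0.29, adjusted p = 0.0231), *Tet1* (0.37, adjusted p = 0.0187) and *Tet3* (0.33, adjusted p = 0.0395), and for the readers *Zbtb38* (0.51, adjusted p = 0.0336) and *Zbtb33* (0.29, adjusted p = 0.0187). It was below it for *Trdmt1* (-0.66, adjusted p = 0.00221), *Hells* (-0.26, adjusted p = 0.0377) and *Idh1* (-0.31, adjusted p = 0.0182). With the exon length trend removed, the adjusted p stayed under 0.05 for *Trdmt1* (-0.67, adjusted p = 0.00240) and *Hells* (-0.35, adjusted p = 0.0178) and was above it for the other 6. Without each of the 12 libraries in turn, the call of *Trdmt1* held throughout, and those of *Idh1* and *Zbtb33* were lost 3 times each, *Zbtb38* 8 times and *Hells* 10 times. Stage, dissection, allele and Cre cannot be told apart in this contrast.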

How the results depend on the processing

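The 16 called values of the members were refitted 265 times under the alternatives: 204 kept direction and call, 61 lost the call and 0 changed sign. Of 914 refits of uncalled values, 17 gained a call, and 63 changed sign, none by a value over 0.09 on the log2 scale. With the exon length trend removed, the number of members called was 1 in *Chd8* neo/neo against *Chd8* +/+ (4 in the main analysis), and 0 for neo/neo against +/- (1), for neo/- against +/- (2) and for the difference of the cKO and neo/- effects (3). Over all genes, the calls in these comparisons, in the same order, were 977 (1534 in the main analysis), 543 (994), 416 (1021) and 820 (1329). For neo/neo against +/- the number of members called was also 0 with no filter and with the second run alone. It was 0 as well with only the groups compared and with sex as a covariate, and 3 with DESeq2. Over all genes, these fits called 937 of 31449, 670 of 17169, 42 of 18117 and 387 of 18810, and DESeq2 called 1788 of 14973. With the replicate block the number of members called was 0, where 572 of all genes were called. In this comparison, the only one taken as paired, the block changed no other member's call. Elsewhere the numbers were not taken to pair libraries, and with the block *Uhrf1* in *Chd8* neo/neo had an adjusted p of 0.0688. For neo/- against +/- the count was 4 with no filter, with DESeq2 and with only the groups compared. Over all genes, these fits called 1006 of 31449, 1669 of 14973 and 1508 of 18173. Leaving out each library in turn gave 0 to 3 for neo/neo against +/- (3 without neo/neo replicate 3), 1 to 2 for neo/- against +/-, 0 to 2 for cKO (0 without Ctrl replicate 3, cKO replicate 1 or cKO replicate 3) and 0 to 3 for the difference of effects (0 without cKO replicate 2). Calls over all genes moved with the library left out too. They ranged from 23 to 2100 for neo/neo against +/- (2100 without neo/neo replicate 3) and from 244 to 694 for neo/- against +/-. For cKO the range was 538 to 2483, and for the difference of effects 533 to 1796. In raw counts, not scaled for exon length, the *Dnmt3b* share differed by 1.99 points in *Chd8* neo/neo and 2.43 in neo/-. Where not shown by the alternative's construction, the cause was not tested. With 3 libraries a group, small changes such as those of *Dnmt1* and *Mbd3* lie near the limit of the test.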
